A study of Mus musculus with 28 samples.

Results

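The data described here are the reads of 10 genes that mark inhibitory interneurons of the cortex or encode their neuropeptides, in mouse motor cortex after a run on the rotarod. The genes are Gad1, Gad2, Slc32a1, Sst, Vip, Npy, Cck, Pvalb, Lhx6 and Reln. They were chosen by name, with earlier results of these data known, and each had its own entry in the deposited table of 24391 gene symbols. All 10 passed the filter on low counts in every comparison. Every mouse carried Cx3CR1-Cre with the TRAPfl allele, so that Cre driven by the Cx3cr1 gene, which is active in microglia and other cells of that lineage, switched on a ribosome tag. No mice without the tag were analysed here. In translating ribosome affinity purification (TRAP) the tagged ribosomes are pulled from a tissue lysate with their mRNA. The groups were Run TRAP, home cage TRAP, Run lysate and home cage lysate, with 7 libraries each. Run mice spent 1 h on the rotarod before collection, and home cage mice, the baseline, did not. Both fractions came from each of the 14 mice. Either condition held 3 mice of cohort 2 and 4 mice of cohort 1, and cohort is the batch that the labels give. By label, either condition held 4 females and 3 males. The labels name microglia as the cell type of all 28 libraries, the lysates of whole cortex included, and give no age.

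GABAergic interneurons make the inhibitory transmitter GABA from glutamate with the decarboxylases encoded by Gad1 and Gad2 and load it into vesicles with the transporter encoded by Slc32a1. Their subclasses are told apart by neuropeptides and by a calcium-binding protein: Sst, Vip, Npy and Cck encode somatostatin, vasoactive intestinal peptide, neuropeptide Y and cholecystokinin, and Pvalb encodes parvalbumin. Lhx6 encodes a transcription factor of the lineage that gives rise to the Pvalb and Sst classes, and Reln encodes reelin, a secreted matrix protein. Cck is also transcribed by excitatory neurons of mouse cortex, and the projection neurons of the neighbouring striatum are GABAergic as well. Microglia are not known as a source of these markers, so the TRAP over lysate ratio of each gene was read as a measure of how much neuronal RNA the TRAP libraries still held.

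Of the promoters, those of 3 peptide genes are shown because the run comparison concerns neuronal activity and CREB, a factor regulated by activity, binds the element searched for. The Sst window holds it in full, and the Vip and Cck windows hold its core. The element was searched as TGACGTCA and as its core TGACG, on both strands, and the core is part of the full element. Capitals mark the matches, and CGTCA in the Cck window is the core on the other strand. Each window holds 300 bases, 250 before to 50 after the start of the gene in RefSeq, written on the gene's strand, on build GRCm38.p6. For Sst this start and the full element lie inside the gene span given below from GENCODE, whose start is further upstream. The windows lie at chr16:23890795-23891094 on the minus strand (Sst), chr10:5638968-5639267 on the plus strand (Vip) and chr9:121495645-121495944 on the minus strand (Cck).
Sst: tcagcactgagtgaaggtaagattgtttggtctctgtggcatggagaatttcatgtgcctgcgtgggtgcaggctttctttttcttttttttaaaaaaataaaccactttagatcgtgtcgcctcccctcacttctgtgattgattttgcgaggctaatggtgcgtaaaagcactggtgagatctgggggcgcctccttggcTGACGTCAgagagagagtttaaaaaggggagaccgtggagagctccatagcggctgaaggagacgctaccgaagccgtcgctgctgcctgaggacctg
Vip: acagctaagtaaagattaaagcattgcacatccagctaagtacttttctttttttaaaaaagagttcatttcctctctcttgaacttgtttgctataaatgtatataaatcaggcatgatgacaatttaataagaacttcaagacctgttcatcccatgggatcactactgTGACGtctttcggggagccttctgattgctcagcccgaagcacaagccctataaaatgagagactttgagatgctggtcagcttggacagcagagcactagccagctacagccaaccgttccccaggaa
Cck: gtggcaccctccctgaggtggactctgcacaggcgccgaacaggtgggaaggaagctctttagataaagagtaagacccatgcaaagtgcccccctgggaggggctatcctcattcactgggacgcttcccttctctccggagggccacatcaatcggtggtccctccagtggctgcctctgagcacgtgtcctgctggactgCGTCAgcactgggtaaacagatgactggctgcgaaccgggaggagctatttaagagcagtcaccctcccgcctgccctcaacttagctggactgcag
The full element stood in the Sst window alone among the 10 genes, at position -48 from the RefSeq start, and in 1.79% of all 32851 promoter windows. The core stood in the windows of Sst, Vip, Cck and Gad2, and in 20.8% of all windows. A match is a stretch of letters and does not show binding.

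The genes are all protein coding, with positions from GENCODE on GRCm38. Gad1 (chr2:70553072-70602014), Gad2 (chr2:22622205-22693874) and Slc32a1 (chr2:158610767-158615748) lie on the plus strand, as do Vip (chr10:5639218-5647617) and Npy (chr6:49822710-49829507). Sst (chr16:23889573-23890958), Cck (chr9:121489824-121495694), Pvalb (chr15:78191114-78206400), Lhx6 (chr2:36081953-36105408) and Reln (chr5:21884454-22344702) lie on the minus strand. Exons of Slc32a1 share 697 bases with the antisense model Gm14205 and those of Reln 246 bases with the antisense Gm10475, and Lhx6 shares 104 with the small RNA Gm27953. The strand setting of the counting is not given in the sources used here, so reads of Slc32a1 or Reln and of their antisense partners cannot be told apart.

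The libraries held 70090518 to 241381845 counted reads. The label of the TRAP libraries was checked against marker genes. All 12 homeostatic microglial genes listed were higher in TRAP than in lysate, with a median log2 fold of 6.42, and so were all 10 endothelial genes, with a median of 1.90. Levels of Y-linked genes went against the labelled sex in both libraries of 2 mice, the ones labelled Run Male1 and Run Female2 of cohort 2. Some of the values that change much without these mice are given without them as well. Other values that change or turn sign without them are given with all mice only, or not at all. The cohorts differed across the transcriptome along GC content (base composition), as described with the cohort comparison.

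Levels are CPM, the counts scaled to a common library size, and so are shares of a library. In bulk tissue, fewer cells of a type and less RNA per cell cannot be told apart. Per kilobase of exon, the mean lysate level over 14 libraries was highest for the peptides Cck (391 ± 82.4 CPM per kilobase, SD), Npy (346 ± 55.6) and Sst (323 ± 73.8), neighbours whose differences lay within their spread. Pvalb (94.9 ± 29.2 CPM per kilobase) followed, and Gad1 (42.4 ± 9.54), Vip (37.5 ± 20.1) and Gad2 (23.6 ± 8.91) came next, in an order that differed by cohort: Vip was at 15.9 CPM per kilobase in cohort 2 and 53.7 in cohort 1, and Gad1 at 34.1 in cohort 2 and 48.7 in cohort 1. The lowest were Lhx6 (3.40 ± 0.746 CPM per kilobase), Slc32a1 (2.60 ± 0.851) and Reln (1.34 ± 0.295). The order also depends on the length used. Per kilobase of the longest coding transcript, which leaves out exon bases of Gad1, Vip, Cck, Lhx6 and Reln among others, Cck stood at 638, above Npy (346) and Sst (323), Gad1 at 96.6 and Vip at 83.3 lay near Pvalb (101), and Reln at 2.71 lay near Slc32a1 (2.60).

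**Figure D1:**
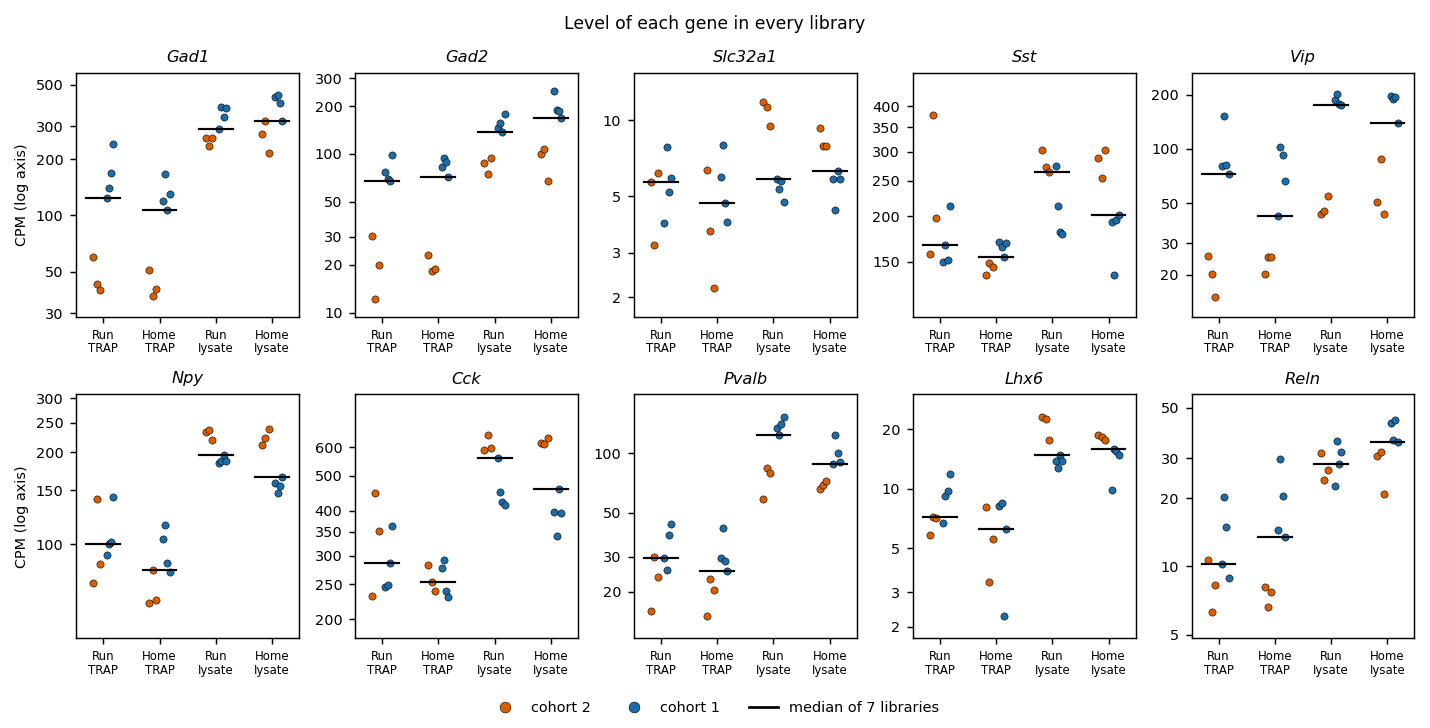
Level of each gene in CPM (log axis) in all 28 libraries, by group, with cohort 2 in orange and cohort 1 in blue and a bar at the median of the 7 libraries. Gad1 of cohort 2 lies between 37.2 and 60.2 CPM in TRAP and between 215 and 320 CPM in lysate, below its cohort 1 levels in TRAP.

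All 10 genes were lower in TRAP than in lysate on the TMM scale, the same direction that they had with RLE, upper quartile and library total scaling, with log2 folds between -1.83 and -0.37 and a median of -1.19 (edgeR's quasi-likelihood test at a Benjamini-Hochberg adjusted p under 0.05). Of the 16716 genes tested, 40.1% were called lower, and the median over all of them was -0.20. The 12 pan-neuronal genes, all lower, had a median log2 fold of -1.39, the 12 striatal genes -1.27 with 11 lower, and 11 of the 12 excitatory cortical genes were lower. Errors of folds are standard errors. The size of the folds was less stable than their direction. Over 28 alternatives, other scalings among them, the log2 fold ran from -0.89 to -0.23 for Sst, from -1.34 to -0.65 for Cck and from -2.31 to -1.74 for Pvalb. The percentages of the lysate level given below are ratios of library shares on the TMM scale and are not amounts of RNA retained.

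Among the genes of GABA synthesis and transport, Gad1 had 40.1, 124 and 241 CPM (lowest, median and highest) in Run TRAP and 37.2, 107 and 167 CPM in home cage TRAP, against 236, 290 and 379 CPM in Run lysate and 215, 320 and 443 CPM in home cage lysate. Of the TRAP libraries, 1 (Run Male2 of cohort 1) reached into the lysate range, and TRAP lay under lysate in each of the 14 mice. Its log2 fold was -1.83 ± 0.15 (adjusted p = 4.62e-12), and the TRAP level was 27.2% of the lysate level in the median mouse. Gad2, which makes the pool of GABA at nerve terminals, had 12.2 to 99.1 CPM over the 14 TRAP libraries and 67.6 to 248 CPM over the 14 lysate libraries, a log2 fold of -1.54 ± 0.14. The groups overlapped, and again all 14 mice were lower in TRAP. Slc32a1, the vesicular transporter, behaved differently, with 2.17 to 8.01 CPM in TRAP and 4.40 to 11.8 CPM in lysate. The median mouse kept 68.3% of the lysate level, 10 of 14 mice were lower in TRAP, and the log2 fold was -0.44 ± 0.18 (adjusted p = 0.0348). That call was lost without the 2 mice whose marks went against their sex label (-0.30 ± 0.20, adjusted p = 0.180), and also when any 1 of the 6 mice of cohort 2, or home cage Male1 or Male2 of cohort 1, was left out (adjusted p between 0.0505 and 0.102). Nor was Slc32a1 called in the Run libraries alone (-0.50 ± 0.26, adjusted p = 0.101) or the home cage libraries alone (-0.43 ± 0.27, adjusted p = 0.163).

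Of the peptides, Sst had the smallest difference: 150, 167 and 379 CPM in Run TRAP and 138, 155 and 171 CPM in home cage TRAP, against 179, 265 and 303 CPM in Run lysate and 138, 202 and 303 CPM in home cage lysate. The ranges overlapped widely. The log2 fold was -0.37 ± 0.11 (adjusted p = 0.00480), but Sst was not called in the Run libraries alone (-0.33 ± 0.17, adjusted p = 0.0983). The median mouse kept 78.7% of its lysate level. Cck (log2 fold -0.82 ± 0.09) kept 56.8%, Npy (-1.03 ± 0.11) 51.2% and Vip (-1.18 ± 0.14) 45.1%, each lower in 14 of 14 mice. Npy, at 64.1 to 143 CPM over the TRAP libraries and 147 to 238 CPM over the lysates, did not overlap between the fractions.

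Pvalb, the calcium buffer of fast-spiking interneurons, had 16.1, 29.5 and 44.0 CPM in Run TRAP and 15.2, 25.4 and 41.9 CPM in home cage TRAP, against 59.0, 123 and 152 CPM in Run lysate and 66.2, 88.5 and 123 CPM in home cage lysate. Every TRAP library lay under every lysate library. The log2 fold was -1.80 ± 0.11 (adjusted p = 1.09e-15), and the log2 ratio within a mouse had an SD of 0.23 in cohort 2 (n = 6) and 0.25 in cohort 1 (n = 8). Pvalb and Npy were the 2 of 10 genes whose 14 TRAP and 14 lysate libraries did not overlap, which held for 4.4% of all genes tested in that direction. Lhx6 (-1.20 ± 0.17) and Reln (-1.38 ± 0.15), the least abundant of the called genes beside Slc32a1, were lower in TRAP in all 14 mice.

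**Figure D2:**
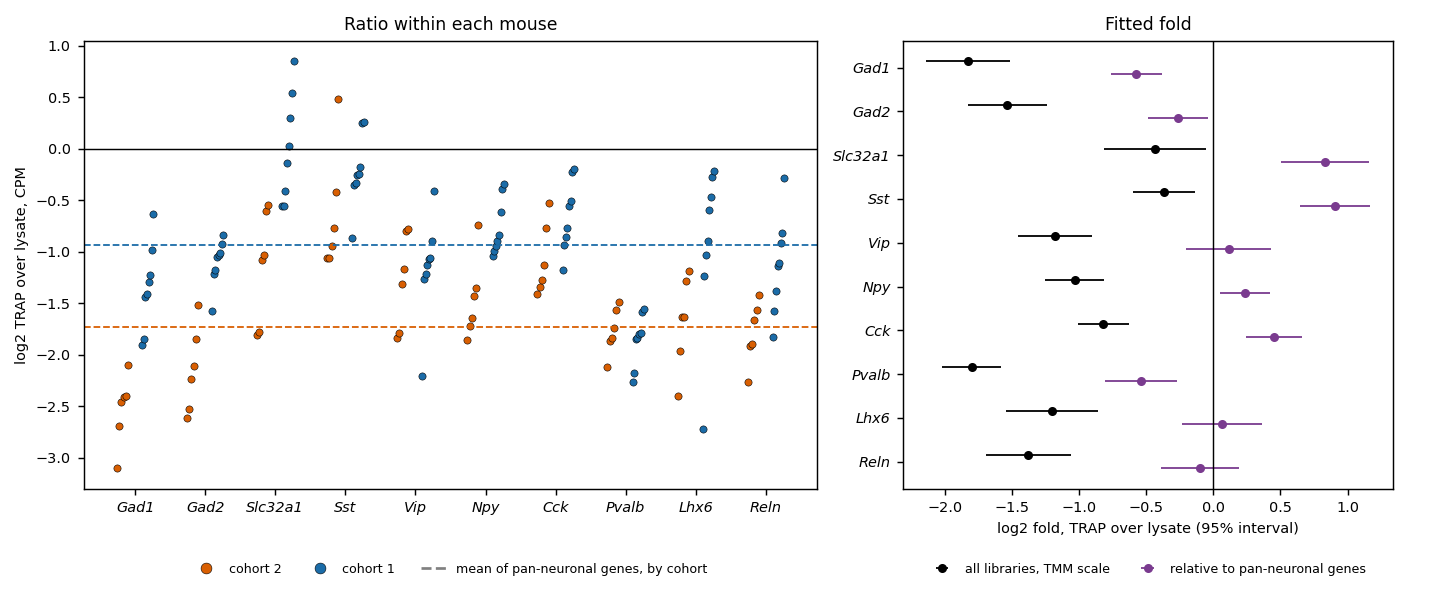
Left, log2 ratio of TRAP over lysate CPM within each mouse (cohort 2 orange, cohort 1 blue), with the mean of 12 pan-neuronal genes in each cohort as dashed lines; right, fitted log2 fold with 95% interval on the TMM scale (black) and relative to the pan-neuronal genes (purple). Slc32a1 and Sst lie above the pan-neuronal level and Gad1 and Pvalb below it.

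Set against neuronal mRNA at large, the genes split. With each library scaled by the mean of the 12 pan-neuronal genes, Sst (log2 fold 0.91 ± 0.13), Slc32a1 (0.83 ± 0.16), Cck (0.45 ± 0.10) and Npy (0.24 ± 0.09) were higher in TRAP than in lysate, 4 of 10 genes, while 67.2% of all genes were called higher on that scale. Gad1 (-0.58 ± 0.09), Pvalb (-0.54 ± 0.13) and Gad2 (-0.27 ± 0.11) were lower, 3 of 10, against 6.81% of all genes. Vip (0.12 ± 0.16), Lhx6 (0.06 ± 0.15) and Reln (-0.10 ± 0.14) were not called, with 95% intervals that all lay between -0.39 and 0.43. The pan-neuronal genes also scattered about their own mean. The 3 of them with the smallest p were Nefm (0.84 ± 0.10), Map2 (-0.83 ± 0.13) and Thy1 (0.68 ± 0.11). The split therefore does not set the members apart from single neuronal genes. With the mouse as a block, 6 calls of members were left, without Npy (0.22, adjusted p = 0.0619).

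The split was not equally firm for all genes. Sst kept 0.71 ± 0.10 and Slc32a1 0.88 ± 0.18 without the 2 mice whose marks went against their label, and both were above the pan-neuronal ratio in most mice, Sst in 14 of 14 and Slc32a1 in 12 of 14. Gad1 was below that ratio in 14 of 14 mice. Gad2 (-0.18, adjusted p = 0.134) and Npy (0.14, adjusted p = 0.127) were not called without those 2 mice. Npy also lost its call when only Run Female2 of cohort 2 was left out (adjusted p = 0.0562). Gad2 lost its call when any of 4 mice was left out, namely home cage Female1 of cohort 1, home cage Female2, Run Female2 or Run Male1 of cohort 2. Scaled to the excitatory genes instead, Sst (0.56 ± 0.16) and Slc32a1 (0.46 ± 0.16) were again called higher, Cck (0.10 ± 0.13) and Npy (-0.12 ± 0.12) were not called, and Reln was called lower (-0.48 ± 0.15, adjusted p = 0.00525). Within the cohorts, Pvalb relative to the pan-neuronal genes was at -0.01 ± 0.18 in cohort 2 (adjusted p = 0.961) and -0.93 ± 0.11 in cohort 1, so its call rests on cohort 1. Vip was called higher in cohort 2 alone (0.43 ± 0.16, adjusted p = 0.0260) and stood at -0.14 ± 0.20 in cohort 1. Neither Gad2 nor Npy was called within either cohort.

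Other genes of the GABA and peptide systems moved the same way as the 10 genes in most cases. Of 17 other neuropeptides and granins, all 17 were lower in TRAP, with a median log2 fold of -1.31. They included Scg2 (-1.99 ± 0.13), a granin of dense-core vesicles, and Pcsk2 (-1.30 ± 0.09), a prohormone convertase. Of 18 other interneuron subtype markers, 16 were lower (median -1.31), among them Nxph1 (-1.65 ± 0.11), Crhbp (-1.62 ± 0.09) and Lamp5 (-1.38 ± 0.10). Of 15 receptors for the ligands, 12 were lower and 1 higher. Sstr2 (-1.45 ± 0.14), a somatostatin receptor, and Cckbr (-1.69 ± 0.12), the brain cholecystokinin receptor, were among the lower ones. Of 8 genes of GABA uptake and breakdown or of glutamine supply, 6 were lower, such as the transaminase Abat (-1.53 ± 0.13), and 2 higher. Glul (1.67 ± 0.10), which encodes glutamine synthetase, was at the top. Of 14 transcription factors of interneurons, 10 were lower, among them Dlx5 (-1.58 ± 0.23), and 1 higher: Maf, which macrophage-lineage cells also express (4.96 ± 0.23).

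The TRAP over lysate ratio differed between the cohorts. In the 12 libraries of cohort 2, 9 of 10 genes had all TRAP libraries under all lysate libraries (27.6% of all genes did so in cohort 2), Sst being the exception. In the 16 of cohort 1 this held for 4 genes, Gad1, Gad2, Npy and Pvalb (15.8% of all genes). The median mouse kept 18.5% of its lysate Gad1 in cohort 2 and 39.2% in cohort 1, and 48.1% of its Slc32a1 in cohort 2 and 96.0% in cohort 1. In cohort 1 alone, Slc32a1 was at 0.04 ± 0.19 (adjusted p = 0.859) and Sst at -0.23 ± 0.11 (adjusted p = 0.0787), and the other 8 genes were called lower. In cohort 2 alone all 10 were called, from -2.52 ± 0.14 for Gad1 to -0.58 ± 0.17 for Sst.

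The difference of the 2 cohorts' ratios was itself called for 4 of the 10 genes, all lower in cohort 2, where 11.9% of all genes were called lower. The log2 differences were -1.20 ± 0.20 for Gad1 (adjusted p = 9.63e-05), -1.12 ± 0.31 for Slc32a1 (adjusted p = 0.00989), -1.01 ± 0.21 for Gad2 (adjusted p = 0.00112) and -0.69 ± 0.17 for Npy (adjusted p = 0.00546). Pvalb stood at 0.09 ± 0.21 with a 95% interval from -0.34 to 0.51. The ratio of 11 of 12 pan-neuronal genes was lower in cohort 2 as well (median -0.84), and that of Cx3cr1 was higher (0.69 ± 0.17). The part of neuronal RNA at large in the members' values was not tested. Without the 2 mice whose marks went against their label, Slc32a1 was not called (-1.08 ± 0.36, adjusted p = 0.0557), while Sst (-0.77 ± 0.18) and Cck (-0.66 ± 0.17) were. Leaving out single mice also added calls in the same direction: Sst and Cck without Run Female2 of cohort 2, Cck without Run Female1 of cohort 1, Reln without Run Male2 of cohort 1, and Lhx6 without home cage Female1 of cohort 2, home cage Female2 of cohort 1 or home cage Male1 of cohort 1 (adjusted p between 0.00465 and 0.0493 over these fits).

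After 1 h of running, no member passed the threshold in either fraction. In TRAP, 0 of 10 genes were called, against 7 of 15203 tested genes (0.046%), and 1 of 10 had an unadjusted p under 0.05, against 3.55% of all genes. In lysate, 0 of 10 were called, against 5 of 16091 (0.0311%), and 2 of 10 had an unadjusted p under 0.05, against 7.41%. For no member did the 7 Run and 7 home cage libraries stand apart in TRAP or in lysate, which 0.046% of all genes did in TRAP and 0.0559% in lysate in either direction. DESeq2 and limma-voom likewise called 0 members in each fraction.

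The member with the smallest unadjusted p in TRAP was Npy, at 74.7, 100 and 143 CPM in Run TRAP and 64.1, 82.6 and 116 CPM in home cage TRAP. The groups overlapped, and the log2 fold of 0.32 ± 0.15 had an unadjusted p of 0.0491 and an adjusted p of 0.999. Sst followed at 0.36 ± 0.18 (unadjusted p = 0.0552, adjusted p = 0.999). One library, labelled Run Female2 of cohort 2, held 379 CPM of Sst, while the next highest Run TRAP library held 213 CPM, and it was also the highest for Cck, at 448 CPM. Without the 2 mice whose marks went against their label, of which it is one, Sst was at 0.08 ± 0.11, Npy at 0.16 ± 0.14, Cck at 0.07 ± 0.13, Pvalb at 0.03 ± 0.19, Gad1 at 0.41 ± 0.17, Gad2 at 0.10 ± 0.15 and Vip at 0.28 ± 0.22, none of them called. Of the other members in TRAP, Lhx6 (0.45 ± 0.27), Gad1 (0.28 ± 0.16), Cck (0.26 ± 0.14), Pvalb (0.19 ± 0.17), Slc32a1 (0.15 ± 0.28) and Vip (0.11 ± 0.22) had positive log2 folds and Gad2 (-0.04 ± 0.17) and Reln (-0.22 ± 0.24) negative ones. Neither Sst, whose promoter window holds the full element, nor Vip, Cck and Gad2, whose windows hold the core, was called. The 95% intervals in TRAP differed in width by gene, from -0.03 to 0.55 for Cck to -0.43 to 0.73 for Slc32a1.

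In lysate, Pvalb had the smallest unadjusted p (0.00940, adjusted p = 0.57), with a log2 fold of 0.31 ± 0.11. Its levels were 59.0, 123 and 152 CPM in Run lysate and 66.2, 88.5 and 123 CPM in home cage lysate, which overlapped. Npy stood at 184, 196 and 236 CPM in Run lysate and 147, 166 and 238 CPM in home cage lysate, also with overlap (log2 fold 0.17 ± 0.07, unadjusted p = 0.0252, adjusted p = 0.658). The genes of GABA synthesis pointed the other way, Gad1 at -0.16 ± 0.10 and Gad2 at -0.24 ± 0.12, neither called. The 95% intervals in lysate were narrower than in TRAP and lay between -0.52 (Reln) and 0.53 (Pvalb).

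**Figure D3:**
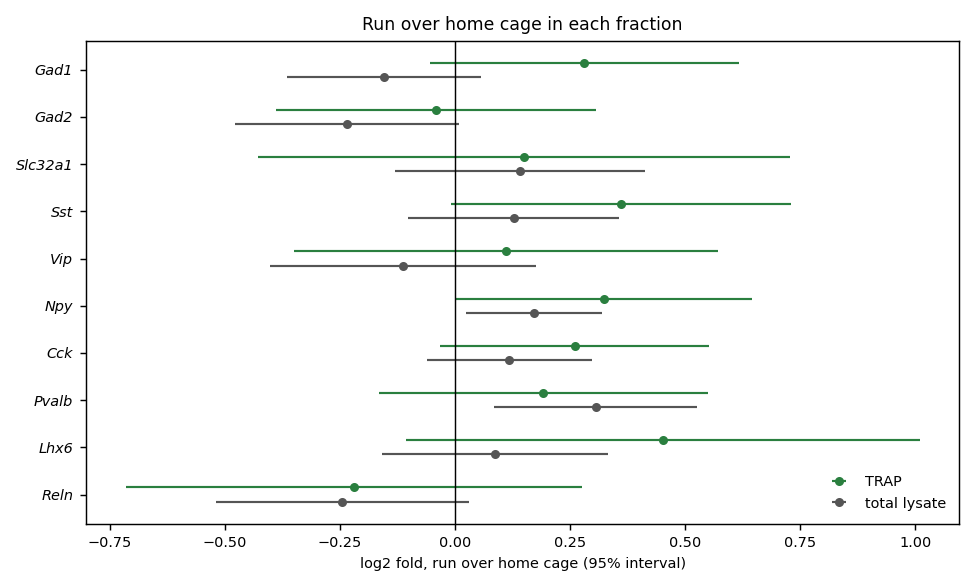
Fitted log2 fold of Run over home cage with its 95% interval for each gene, in TRAP (green) and in total lysate (grey), from 14 libraries a fraction. No gene was called after adjustment; the intervals of Npy in both fractions and of Pvalb in lysate lie above 0.

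Within the cohorts, Run and home cage libraries stood apart for 4 cases. In cohort 1 lysate, Pvalb (123, 137 and 152 CPM in 4 Run libraries and 88.5, 95.4 and 123 CPM in 4 home cage libraries, lowest, median and highest) and Npy were higher in every Run library than in every home cage library, as 1.59% of all genes were. In cohort 2 lysate this held for Slc32a1, at 9.49, 11.3 and 11.8 CPM in 3 Run libraries and 7.88, 7.89 and 9.34 CPM in 3 home cage libraries (4.21% of all genes). In cohort 2 TRAP it held for Sst, at 157, 198 and 379 CPM in Run and 138, 145 and 149 CPM in home cage (5.12% of all genes). The Run libraries at 198 and 379 CPM are those of the 2 mice whose marks went against their label, and 1 Run library is left without them. The difference of the run effect between cohorts was called for 0 members and 0% of all genes in TRAP, with 0 of 10 members at an unadjusted p under 0.05 against 4.28% of all genes. In lysate it was also called for 0 members and 0% of all genes, with 0 of 10 members against 2.04% unadjusted. Sst in TRAP had a difference of 0.68 ± 0.32 (unadjusted p = 0.0504), and Pvalb in lysate one of -0.34 ± 0.20. Without those 2 mice, they were at 0.06 ± 0.26 for Sst and -0.67 ± 0.25 for Pvalb, and Gad2 in TRAP, at 0.14 ± 0.34 with all mice, was at 0.71 ± 0.30.

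The run effect also did not differ between the fractions at the threshold: 0 members and 0% of all genes were called, and 0 of 10 members had an unadjusted p under 0.05, against 3.92% of all genes. Gad1 had the largest difference of the 10, TRAP minus lysate 0.45 ± 0.29 (unadjusted p = 0.137). Without the 2 mice it was at 0.78 ± 0.29 (adjusted p = 0.396) and Gad2 at 0.49 ± 0.25, against 0.16 ± 0.28 for Gad2 with all mice. For genes of striatal projection neurons, of which 0 were called, the run effect in cohort 2 minus that in cohort 1 was positive for 12 of 12 genes in lysate (median 0.70) and for 11 of 12 in TRAP (median 0.76), with no gene of that list at 0, while the median over all genes was -0.03 in lysate and 0.02 in TRAP. Their summed lysate level was 955 to 1307 CPM in Run and 643 to 1226 CPM in home cage libraries of cohort 2, and 713 to 943 CPM in Run and 826 to 1107 CPM in home cage libraries of cohort 1. Their part in the members' values was not tested, and with the mean log2 CPM of the striatal genes added to the model 0 members were called in either fraction.

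The members' levels also differed between the cohorts, a comparison added after the data were seen. In lysate all 10 genes were called: 5 were higher in cohort 2 than in cohort 1 (36.3% of all genes were) and 5 lower (35.1% of all genes). Vip had 43.4, 47.9 and 87.4 CPM in the 6 lysate libraries of cohort 2 and 140, 188 and 202 CPM in the 8 of cohort 1, a log2 fold of -1.79 ± 0.15. Gad2 (-1.01 ± 0.12), Pvalb (-0.74 ± 0.11), Gad1 (-0.54 ± 0.10) and Reln (-0.34 ± 0.13) were the other lower ones, and Reln lost its call without the 2 mice whose marks went against their label (adjusted p = 0.0902). It also lost it when 1 of 6 mice was left out, namely home cage Female1 or Male1 of either cohort or Run Female2 of either cohort (adjusted p between 0.0505 and 0.0928). Slc32a1 (0.77 ± 0.13), Cck (0.50 ± 0.09), Sst (0.49 ± 0.11), Lhx6 (0.46 ± 0.12) and Npy (0.37 ± 0.07) were higher. In TRAP, 0 members were higher (33.6% of all genes) and 5 lower (31.6% of all genes), namely Gad2 (-1.99 ± 0.18), Vip (-1.98 ± 0.24), Gad1 (-1.71 ± 0.17), Reln (-1.04 ± 0.24) and Pvalb (-0.62 ± 0.17). Without the 2 mice whose marks went against their label, Npy was called lower in TRAP as well (-0.57 ± 0.15), as it was without Run Female2 of cohort 2 alone (-0.46 ± 0.14).

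The direction lay along base composition. The 5 genes that were higher in cohort 2 lysate have the 5 highest transcript GC contents of the 10: Slc32a1 61.9%, Cck 56.9%, Lhx6 56.2%, Sst 56.0% and Npy 53.7%. The 5 lower ones have the lowest: Reln 51.1%, Pvalb 49.3%, Gad1 48.4%, Gad2 44.1% and Vip 42.2%. Across all genes with a GC value, which are not independent replicates, the cohort fold had a Spearman correlation with GC content of 0.80 in lysate and 0.76 in TRAP. With the GC trend of each library removed, the 5 higher genes turned lower in lysate, from -0.73 ± 0.13 for Slc32a1 to -0.27 ± 0.06 for Npy, and in TRAP all 10 genes were called lower. Vip, Gad1, Pvalb and Reln were called lower in lysate on both scales, and Gad2 was at -0.10 and not called without the trend. The cohort difference of the TRAP over lysate ratio had a correlation of only -0.03 with GC content.

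**Figure D4:**
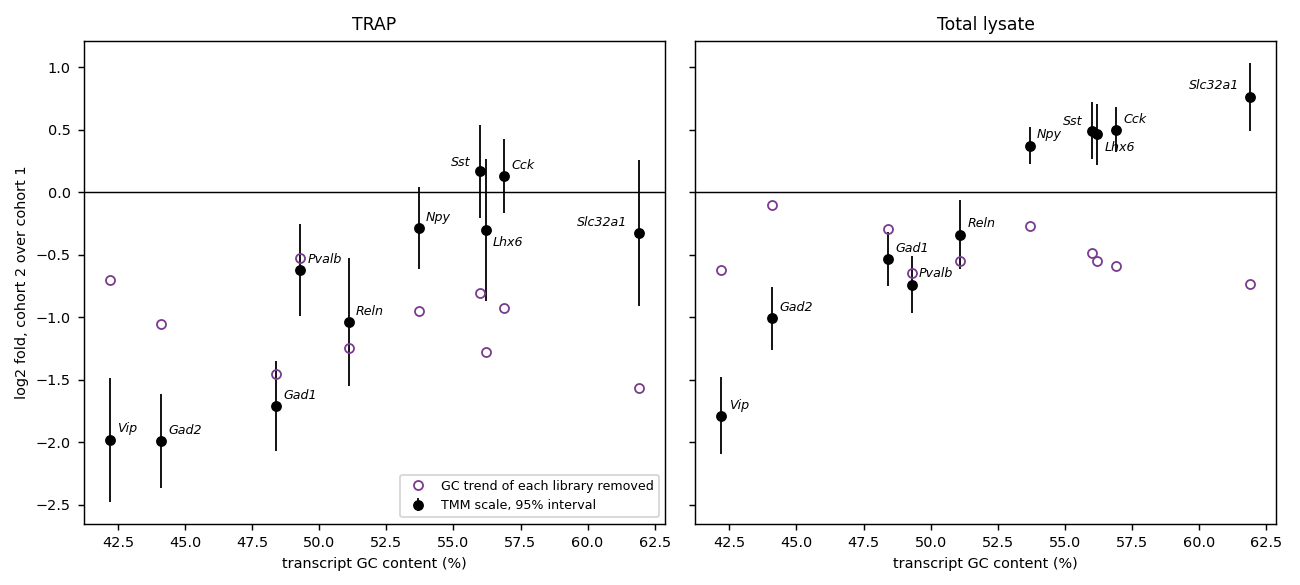
Log2 fold of cohort 2 over cohort 1 against transcript GC content for each gene, in TRAP (left) and lysate (right), with the fitted fold and its 95% interval (black) and the fold after the GC trend of each library was removed (open circles). In lysate Vip (42.2% GC) is lowest at -1.79 and Slc32a1 (61.9% GC) highest at 0.77, and the open circles all lie below 0.

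Within the lysates, the members did not vary as one block. Over the 14 lysate libraries, each centred on its cohort's mean, Gad2 had a Pearson correlation of 0.90 and Reln of 0.88 with the mean of Gad1, Gad2 and Slc32a1 (Gad2 is part of that mean), while Npy stood at -0.62 and Pvalb at -0.57. Slc32a1, though also part of that mean, stood at only 0.26 with it and at -0.30 with Gad1, so the mean mostly followed Gad1 and Gad2. Of 12308 genes, those most like that mean were Zfhx4 (0.91), Foxp2 (0.88), Ric8b (0.87), Fam65b (0.86), Nexn (0.85), Unc13c (0.84), Arpp21, Pbx3, Smarca1 and Cntnap2 (0.83 each). These are descriptions over libraries that share depth and base composition, and no p is given.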

How the data were processed

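Poly(A) RNA of TRAP and total lysate from motor cortex was sequenced after Nextera XT library preparation, per the labels' protocols. The authors deposited raw counts per gene symbol, with no normalisation. Per the submitters' processing notes, the tools were STAR 2.7.7a, featureCounts and DESeq2, with build GRCm38. No source used here gives the annotation, the strand setting or the handling of multi-mapping reads. Groups, cohort and labelled sex came from the sample titles and labels, and 0 columns belonged to other samples. Columns without a cohort mark were taken as cohort 1, whose titles they match.

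Counts were tested with edgeR 4.0.16 (R 4.3.3): TMM scaling, filterByExpr by group, quasi-likelihood F tests and Benjamini-Hochberg adjustment over all genes tested, called at 0.05. The comparison of fractions and the interactions between fractions used 28 libraries and the run comparisons 14 each, with cohort as a term. Intervals are 95% and levels are CPM with TMM factors over 28 libraries. Ratios within a mouse added 0.1 CPM. Likeness used genes with a mean log2 CPM of at least 1, and the GC trend was a lowess fit with span 0.3. GC content is that of the longest coding transcript in GENCODE. The scripts were tested on simulated data. The members and the 13 gene lists were chosen with earlier results of these data known. Named genes were all members, up to 3 called genes a list with the smallest p in a comparison, Cx3cr1 as a mark of composition, and the 10 most like genes. Some genes that the rule names are not reported here.

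The titles pair each TRAP library with the lysate of the same mouse. After removal of the mean of each group within each cohort, the correlation of such a pair was -0.15 to 0.18, and it exceeded 0.1 for 4 of 14 mice. Of the 14 TRAP libraries, 7 correlated best with the lysate of their own mouse. DESeq2 1.42.0, limma 3.58.1, other scalings, no filter, each mouse left out, each cohort alone, terms for the mouse, sex and striatal level, and removal of the GC trend were alternatives, the last added after the data were seen. No libraries of a group agreed within sampling noise (lowest chi-square per degree of freedom 69.6 over 84 pairs). The mice are separate animals per their titles.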

Additional observations from a re-analysis of the deposited data

Results flagged for a closer look

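In 4 groups of 7 libraries each, the highest or lowest library of a group was compared with the rest for every gene, 40 groups in all, and 2 stood apart beyond Dixon's 95% bound, which chance passes in about 5% of groups. Sst was at 379 CPM in the Run TRAP library labelled Female2 of cohort 2, against 213 CPM in the next highest, and this mouse is one of the 2 whose Y-linked levels went against their label. Lhx6 was at 9.89 CPM in the home cage lysate library of Female1 of cohort 1, against 14.8 CPM in the next lowest.

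The TRAP over lysate ratio differed between the cohorts by a test of the difference itself for 4 genes. All 4 were lower in cohort 2, as were 11.9% of all genes tested. On the log2 scale, cohort 2 minus cohort 1, the differences were -1.20 for Gad1, -1.01 for Gad2, -1.12 for Slc32a1 and -0.69 for Npy. Without the 2 mice whose marks went against their label, Slc32a1 was at -1.08 ± 0.36 and not called, while Sst and Cck were called. The log2 ratio of Gad1 ranged from -3.10 to -2.10 in the 6 mice of cohort 2. In the 8 mice of cohort 1 it ranged from -1.91 to -0.64. The mean log2 ratio of the 12 pan-neuronal genes was lower in cohort 2 as well, at -1.73 against -0.93 in cohort 1. The share of all genes whose ratios separate the cohorts was not computed. The part of tissue composition or of the purification in these differences was not tested.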

How the results depend on the processing

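No alternative called a member in the run comparisons, in the fraction by run term or in the cohort by run term. For TRAP against lysate, 266 of 280 member values kept direction and call, 13 lost the call and Slc32a1 turned to 0.043 in cohort 1 alone. Relative to pan-neuronal genes, 227 of 250 did, and scaling to the excitatory genes put Npy at -0.12. Without the GC trend, the cohort fold turned to -0.80 for Sst and -0.93 for Cck in TRAP, where 10 members were called in place of 5, and in lysate to -0.73 for Slc32a1, -0.49 for Sst, -0.27 for Npy, -0.59 for Cck and -0.55 for Lhx6. Another 68 member values that were never called changed sign over the alternatives.

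Counts over all genes moved more. For Run against home cage in TRAP (7 genes), DESeq2 called 39, the replicate block on the shared number 3, leaving out 1 mouse 3 to 8, and each cohort alone or the fit with no cohort term 0. In lysate (5 genes), DESeq2 called 38, removal of the GC trend 9, leaving out 1 mouse 0 to 9, and each cohort alone, the fit with no cohort term, the replicate block or leaving out the 2 mice 0. For the run effect between fractions (0 genes), DESeq2 called 30, cohort 2 alone 2 and leaving out 1 mouse 0 to 1. For the run effect between cohorts (0 genes), DESeq2 called 1 in TRAP and 2 in lysate. For the cohort difference of the TRAP over lysate ratio, 3383 genes became 1955 without the 2 mice, and 4 members became 8 with library totals.

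Library totals called 3903 genes higher and 9488 lower in TRAP, against 5679 and 6698 with TMM, and moved the median log2 fold of all genes to -0.71 (upper quartile -0.41, RLE -0.24, TMM -0.20). For the cohort difference they called 370 higher and 4118 lower, against 1402 and 1981, with a median of -0.38. Scaling to the excitatory genes in place of the pan-neuronal ones gave 9335 higher and 2022 lower, against 11229 and 1139. Run and home cage mice share only a number: same-numbered libraries correlated between -0.08 and 0.11 in TRAP and between -0.35 and 0.08 in lysate, and 2 of 7 and 1 of 7 pairs correlated best with their own number. In the comparisons of fractions and of the run effect between fractions, the block on the mouse changed no other call of a member than that of Npy. The cohort difference of the TRAP over lysate ratio was not fitted with that block. The GC trend cannot be told apart from a cohort difference in RNA, and 7 mice a group limit what was detectable.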
